A study of Mus musculus with 6 samples.

Results

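Perineuronal nets are lattices of extracellular matrix that enclose the soma and proximal dendrites of certain neurons, in the cortex above all fast-spiking PV interneurons. Described here are 9 genes of their components, of 32285 genes in the deposited count tables. No measured value enters the rule, which lists them by symbol. They are the chondroitin sulfate proteoglycans of the lectican family (Acan, Bcan, Ncan and Vcan), the hyaluronan link proteins Hapln1 and Hapln4, tenascin-R (Tnr), the hyaluronan synthase Has3, and the receptor-type phosphatase Ptprz1. Each symbol matched 1 row of the tables.

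The values come from snRNA-Seq of the prelimbic cortex (PL), the part of the medial prefrontal cortex taken from coronal sections, of male C57BL/6 mice. The males were raised until weaning by dams with a running wheel (Run) or without one (Sed), and then lived in a group (GH) or in social isolation (SI). Dataset 1 (cohort 1) has 1 Run GH and 1 Sed GH library, from males that had been tested in the tube test and were chosen by rank, from the top and the bottom of their groups. Whether both ranks went into each library is not given in the sources used here. Dataset 2 (cohort 2, not tested for behavior) has 1 library for each pairing of maternal environment and housing. Each of the 6 libraries pools 3 males with different mothers, so mice cannot be told apart within a library, and no group has more than 1 library in a dataset. All mice were of the same strain and sex, and the labels name no transgene. The labels give postnatal day 21 as the age and the methods an adult age of several months. Values of the 6 libraries are listed throughout with dataset 1 first (Run, then Sed, both GH), followed by dataset 2 (first GH and then SI, with Run before Sed in each).

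A net is built on hyaluronan chains, which the synthases extrude from the cell membrane. Lecticans bind hyaluronan at one end, where link proteins hold the bond, and at the other end they are cross-linked by tenascin-R. PTPRZ1 is itself a chondroitin sulfate proteoglycan when its long form is made, and it binds tenascin-R and several growth factors. Nets form late in postnatal development and are known to limit plasticity of the circuits around PV interneurons, whereas OPCs and astrocytes are known sources of much of the matrix.

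After filtering, the libraries held 4997 to 9936 nuclei with a median of 1637 to 6250 UMIs, where a UMI marks 1 captured RNA molecule. Sed GH of dataset 2 was the shallowest in both total and median. Any 2 libraries shared 5 to 22 barcodes, at most 0.428% of the smaller library. Nuclei fell into 11 named classes, of which pyramidal neurons had 33753, PV interneurons 1116, SST interneurons 979, astrocytes 1335, OPCs 348, oligodendrocytes 266 and microglia 122. The names were given from marker lists, so counts of these same markers describe the classes and do not check the names. Highest in their own class were 11 of 13 PV markers, 11 of 13 measured SST markers, 16 of 17 astrocyte markers, 13 of 13 OPC markers and 16 of 16 microglia markers. The counts were lower for pyramidal neurons (6 of 12), VIP interneurons (10 of 15) and NPY/Lamp5 interneurons (9 of 14). The 9 genes were kept out of the genes used for clustering. Levels are CPM, the UMIs of a gene per 1000000 UMIs, of the summed nuclei of a class in a library. Since longer genes with more intronic RNA give more UMIs, levels are compared between classes and libraries and not between genes. Deposited barcodes below the nuclei hold free RNA, and the levels in these background droplets are given as background, along with microglia as the class taken to lack the genes. These droplets held a median of 82 to 1176 UMIs in a library, fewer than its nuclei. A level below the droplets therefore does not show that a class lacks the gene. The microglia also held markers of other classes, with Mbp at a median of 291 CPM and Pdgfra at up to 162 CPM. They may thus hold more than free RNA.

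The members sit on 6 chromosomes, and each lectican gene has a link protein gene as neighbor (mm10, GENCODE positions). Acan spans chr7:79053483-79115099 and lies 2 bases from Hapln3. Bcan spans chr3:87987531-88000230 and lies 21519 bases from Hapln2. Ncan at chr8:70093085-70120873 and Hapln4 at chr8:70083457-70090862 lie 2222 bases apart, and Vcan at chr13:89655312-89742509 and Hapln1 at chr13:89539796-89611652 lie 43659 bases apart. Tnr (chr1:159523769-159931729), Has3 (chr8:106870242-106884566) and Ptprz1 (chr6:22875502-23052916) have no such neighbor in the list. Exons make up 3.15% of the Tnr span, 8.03% of the Ptprz1 span and 53.0% of the Hapln4 span, so intronic reads can add far more to some members than to others. Some gene spans overlap others, and the counting of reads shared between them was not tested. Tnr, for example, overlaps predicted transcripts on its own strand.

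The sequences before the transcription start are shown for Acan and Bcan, the members that stand out in PV interneurons below, and for Vcan and Tnr, which stand highest in OPCs, with every CG dinucleotide in capitals. Each is 250 bases long, 5′ to 3′ on the gene's strand, from RefSeq on GRCm38.p6, whose start can differ from the GENCODE start given above. The windows are chr7:79052976-79053225 (plus strand) for Acan, chr3:88000357-88000606 (minus) for Bcan, chr13:89742513-89742762 (minus) for Vcan and chr1:159523519-159523768 (plus) for Tnr.
Acan: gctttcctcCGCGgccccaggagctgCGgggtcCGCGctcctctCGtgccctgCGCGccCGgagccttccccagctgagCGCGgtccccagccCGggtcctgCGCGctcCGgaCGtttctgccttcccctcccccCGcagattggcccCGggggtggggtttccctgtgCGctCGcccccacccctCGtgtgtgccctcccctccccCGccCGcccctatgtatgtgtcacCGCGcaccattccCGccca
Bcan: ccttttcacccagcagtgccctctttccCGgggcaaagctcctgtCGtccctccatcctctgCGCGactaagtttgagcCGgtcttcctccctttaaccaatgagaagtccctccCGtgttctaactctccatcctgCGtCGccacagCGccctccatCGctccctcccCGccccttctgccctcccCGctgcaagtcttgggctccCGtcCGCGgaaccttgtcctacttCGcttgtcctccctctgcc
Vcan: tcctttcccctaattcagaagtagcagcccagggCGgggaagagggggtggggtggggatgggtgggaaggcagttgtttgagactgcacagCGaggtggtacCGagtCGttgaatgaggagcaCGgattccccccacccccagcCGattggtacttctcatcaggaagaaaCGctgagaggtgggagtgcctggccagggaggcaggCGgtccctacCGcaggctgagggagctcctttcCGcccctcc
Tnr: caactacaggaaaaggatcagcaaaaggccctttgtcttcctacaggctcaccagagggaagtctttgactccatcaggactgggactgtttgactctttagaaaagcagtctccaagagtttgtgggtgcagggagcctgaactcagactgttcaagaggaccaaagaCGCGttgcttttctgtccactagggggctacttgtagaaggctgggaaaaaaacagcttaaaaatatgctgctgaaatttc
CG (both strands read alike, since CG is its own reverse complement) occurs in 92.1% of the 32851 RefSeq mouse promoters of this length, with a median of 6 per window. Acan had 26, Bcan 16, Vcan 10 and Tnr 2. Of the 3 other members matched, Ptprz1 had 22, Ncan 6 and Hapln1 2. GC content ran from 46.8% for Tnr to 74.4% for Acan, with a median of 52.4% over all promoters. The members thus range from CpG-rich to CpG-poor, and these counts describe the letters only.

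**Figure D1:**
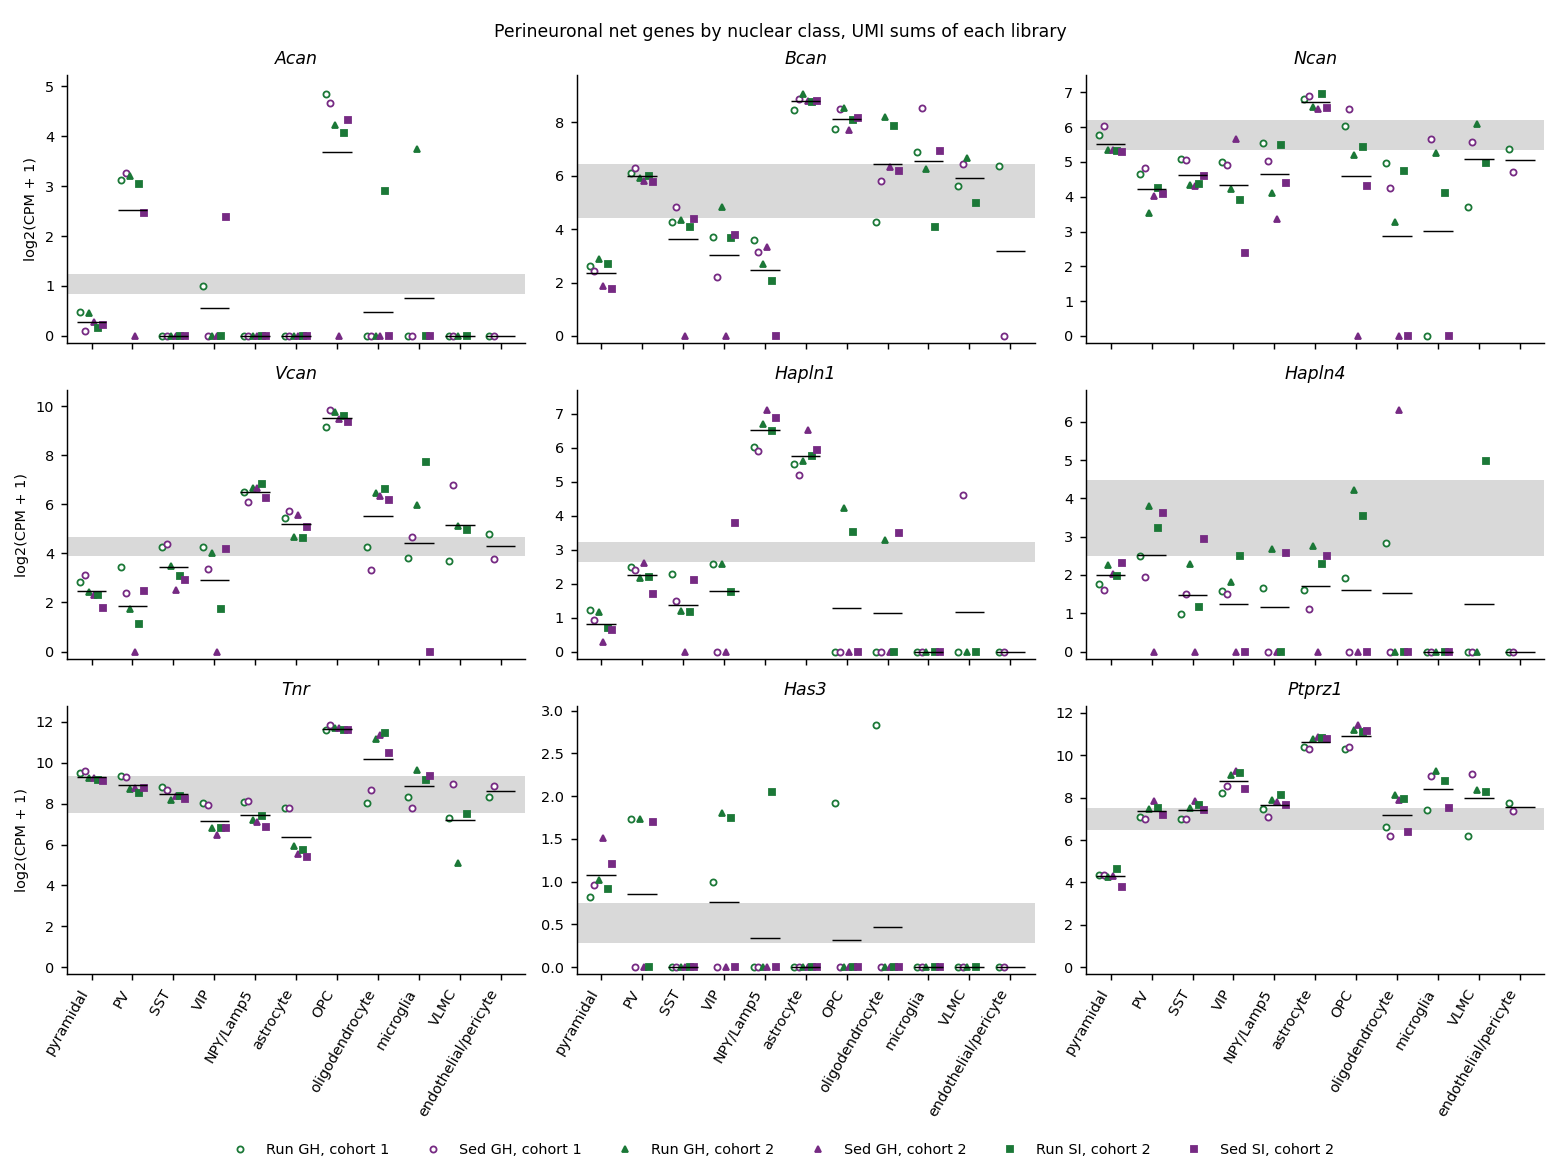
Level of each member by class of nuclei, as log2(CPM + 1) of the UMI sums. Points are libraries with at least 10 nuclei of the class, horizontal lines are means, and the grey band is the range of the background droplets of the 6 libraries. Bcan stands highest in astrocytes, Vcan and Tnr in OPCs, Hapln1 in NPY/Lamp5 interneurons and astrocytes, and Acan above its band in PV interneurons and OPCs.

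Acan, which encodes aggrecan, the core proteoglycan by which nets are commonly stained, had few UMIs in all classes, with most of those outside pyramidal neurons in PV interneurons and OPCs. In PV interneurons its level was 7.72, 8.56, 8.19, 0, 7.20 and 4.52 CPM, which amounts to 31 UMIs in 29 of 1116 nuclei. The library at 0 is Sed GH of dataset 2, with 198078 UMIs in PV interneurons, where 3 counts would have been 15.1 CPM. This floor lies above the level of every other library, so the 0 does not set this library apart. In OPCs it was 27.8, 24.4, 17.7, 0, 15.8 and 19.0 CPM, or 20 UMIs in 17 of 348 nuclei, with 0 again in the shallow library. No Acan UMI occurred in SST interneurons (0 of 979 nuclei, which allows a share of nuclei with a UMI of up to 0.306%), astrocytes (0 of 1335, up to 0.225%) or NPY/Lamp5 interneurons (0 of 495, up to 0.606%). These limits hold for nuclei with a captured UMI and not for nuclei that express the gene. Pyramidal neurons held 40 UMIs in 33753 nuclei (0.241 CPM, exact Poisson interval 0.172 to 0.329), and the background droplets had 0.788 to 1.37 CPM. Microglia held 1 UMI in 122 nuclei.

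A floor of 3 counts over the group was set for a class at 0. The pooled Acan level of PV interneurons was 7.17 CPM (exact Poisson interval 4.87 to 10.2). It was 8.82 times the floor of SST and 4.09 times that of NPY/Lamp5 interneurons. The pooled level of OPCs was 22.4 CPM (13.7 to 34.6), 27.6 times the floor of SST interneurons and 27.4 times that of astrocytes. The ratios take the pooled levels as they stand and leave out the counting error of PV interneurons and OPCs. These intervals and floors cover counting error only. Acan did not pass the filter on low counts in the fit across classes (edgeR). Without that filter it was called higher in PV than in SST interneurons (adjusted p = 5.30e-07) and than in pyramidal neurons (log2 difference 4.49, adjusted p = 4.09e-22).

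Bcan encodes brevican, a lectican known from astrocyte processes and synapses as well as from nets. Astrocytes held 353, 467, 537, 445, 439.9 and 447 CPM, a mean of 448 ± 59.1 (SD, n = 6 libraries). OPCs had 217, 366, 373, 211, 269 and 284 CPM, and oligodendrocytes the wide range of 18.3, 54.6, 297, 78.8, 232 and 72.0 CPM. PV interneurons had 68.0, 77.1, 59.6, 55.5, 62.4 and 54.2 CPM, a mean of 62.8 ± 8.57 (SD, n = 6), against 18.4, 27.2, 19.3, 0, 15.9 and 19.9 CPM in SST interneurons. Every PV value lay above every SST value, and pyramidal neurons were lower still, at 2.38 to 6.31 CPM. The background droplets had 29.0, 20.1, 87.0, 49.3, 78.3 and 51.0 CPM. PV interneurons lay above the droplets of their own library in 4 of 6 libraries, SST interneurons in 1 and pyramidal neurons in 0. Microglia of the 5 libraries with at least 10 such nuclei ranged from 16.1 to 369 CPM.

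After each nucleus was thinned to 1000 UMIs, 2.94% to 8.55% of PV nuclei of a library had a Bcan UMI, 0% to 5.26% of SST nuclei and 3.45% to 20% of microglia. Nuclei under that depth were left out, all from Sed GH of dataset 2 (37 PV, 31 SST and 6 microglia nuclei). Unthinned, the shares were 7.19% to 39.8%, 0% to 13.7% and 3.45% to 54.5%, at median depths per library of 1339 to 5878 UMIs in PV, 1355 to 5118 in SST and 1534 to 3551 in microglia, whose shares come from the 5 libraries with at least 10 such nuclei. The PV shares thus did not stand above those of microglia, of which these libraries hold 10 to 37 nuclei, and by itself the share does not show expression. Since the microglia also held RNA of other classes, the share does not show a lack of expression either. The difference between PV and SST interneurons of the same libraries was as large after the background profile had been subtracted, at 2.18 on the log2 scale (adjusted p = 2.63e-07).

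Ncan encodes neurocan, a lectican that is made by neurons and astrocytes. It was highest in astrocytes, at 112, 119, 95.2, 91.4, 123 and 92.2 CPM. Pyramidal neurons followed with 53.7, 64.4, 39.5, 39.8, 39.1 and 38.3 CPM. PV interneurons had the lower values of 23.9, 27.1, 10.5, 15.1, 18.0 and 15.8 CPM, and the ranges of PV and pyramidal neurons did not overlap. The background droplets had 39.5 to 72.2 CPM and microglia 0 to 49.3 CPM. Pyramidal neurons lay above their own background droplets in both libraries of dataset 1 and below them in the 4 of dataset 2.

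Vcan encodes versican, a lectican of many tissues that OPCs are known to make. OPCs had 562, 928, 878, 703, 769 and 645 CPM, a mean of 747 ± 139 (SD, n = 6), above every value of every other class. NPY/Lamp5 interneurons came next with 89.6, 66.9, 99.8, 101, 113 and 75.0 CPM, all above the background droplets at 13.8 to 24.3 CPM. Astrocytes had 23.5 to 51.7 CPM and microglia 0 to 209.9 CPM. PV interneurons (0 to 10.0 CPM) and pyramidal neurons (2.43 to 7.79 CPM) lay below the background droplets in all libraries.

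Hapln1 encodes the link protein that is best known from cartilage and that is needed for dense nets in the brain. It was at 63.4, 59.0, 103, 138, 87.9 and 115 CPM in NPY/Lamp5 interneurons, which are known as neurogliaform-type cells. Astrocytes had 44.8, 35.3, 47.6, 91.4, 52.8 and 59.9 CPM. These classes stood above all others, and the neighbors in the order also differed from each other, with NPY/Lamp5 interneurons higher than astrocytes by 0.76 on the log2 scale (edgeR, adjusted p = 0.00513). PV interneurons had 2.26 to 5.05 CPM in the 6 libraries, astrocytes being higher by 3.65 (adjusted p = 4.69e-15). The background droplets had 5.25 to 8.32 CPM, and 0 UMIs were found in 122 microglia.

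Hapln4 encodes the brain link protein of the nets around fast-spiking axons and somata. Its level in PV interneurons was 4.63, 2.85, 12.9, 0, 8.40 and 11.3 CPM from 31 UMIs. Pyramidal neurons had 2.06 to 3.96 CPM and SST interneurons 0 to 6.63 CPM. The ranges of PV and SST interneurons overlapped, and PV interneurons lay below the background droplets of their own library (4.60 to 21.2 CPM) in all 6. Hapln4 did not pass the filter in the fit across classes. Without the filter it was called higher in PV than in SST interneurons (log2 difference 1.67, adjusted p = 0.0193).

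Has3 encodes 1 of the hyaluronan synthases and was close to the limit of detection. It had 165 UMIs in pyramidal neurons (0.763 to 1.86 CPM per library), 6 in PV interneurons and 0 in SST interneurons, astrocytes and microglia. The background droplets had 0.216 to 0.679 CPM. It did not pass the filter in the fit across classes, and no difference of Has3 between classes was tested there.

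Tnr encodes tenascin-R, a matrix glycoprotein of oligodendrocyte lineage cells and some neurons. OPCs had 3073, 3662, 3344, 3305, 3071 and 3071 CPM, a mean of 3254 ± 235 (SD, n = 6). Pyramidal neurons had 713, 764, 606, 608, 572 and 558 CPM, and PV interneurons 643, 641, 427, 439, 367 and 429 CPM. In the thinned nuclei, 39.2% to 50.6% of pyramidal and 30.1% to 47.0% of PV nuclei of a library had a Tnr UMI, against 9.09% to 24.3% of microglia. Unthinned, these shares were 60.1% to 95.5%, 38.8% to 93.5% and 20% to 54.5%, at a median depth of 1696 to 6822 UMIs in pyramidal nuclei. As a level, microglia had 222 to 797 CPM in the 5 libraries with enough nuclei. Pyramidal neurons exceeded microglia by 1.00 ± 0.38 on the log2 scale (SE, edgeR, adjusted p = 0.0275), whereas PV interneurons minus microglia, at 0.46 (interval -0.30 to 1.22), did not pass. Astrocytes had the lowest mean of the 11 classes, with 218, 222, 59.0, 45.7, 52.8 and 41.5 CPM, below the background droplets of their own library in all 6 (542, 660, 256, 202, 269 and 188 CPM).

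Ptprz1 encodes a phosphatase of radial glia, astrocytes and OPCs that binds tenascin-R. OPCs had 1265, 1343, 2342, 2742, 2197 and 2294 CPM and astrocytes 1337, 1242, 1729, 1850.5, 1793 and 1761 CPM. Among neurons it was highest in VIP interneurons (295, 381, 532, 620.4, 571 and 339 CPM), followed by NPY/Lamp5 interneurons at 134 to 276 CPM, SST interneurons at 126 to 231 CPM and PV interneurons at 127 to 232 CPM. The last place was held by pyramidal neurons at 12.8 to 24.2 CPM, below the 88.8 to 179 CPM of the background droplets in every library. Microglia had 171 to 610.2 CPM, a range that overlaps that of each of these interneuron classes.

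The order of the 11 classes by mean log2(CPM + 1) was tested between neighbors for the 6 members that passed the filter, and 16 of 60 neighboring pairs differed (edgeR, adjusted over all genes of the contrast). The share of all genes that differed was not counted over these pairs, so the number is a description. For Bcan, astrocytes exceeded OPCs by 0.83 on the log2 scale (adjusted p = 0.000707), OPCs exceeded microglia by 1.64 (adjusted p = 0.000471) and oligodendrocytes exceeded PV interneurons by 0.90 (adjusted p = 0.0133). The oligodendrocyte value includes, in dataset 2 only, the Enpp6-led cluster described below, at 507 CPM for Bcan, and without that cluster the oligodendrocytes were at 32.9 CPM in dataset 1 and 40.8 CPM in dataset 2, under every PV library. Below PV interneurons no neighboring pair of the Bcan order passed the threshold. For Ptprz1 the pairs that differed were astrocytes above VIP interneurons (1.91, adjusted p = 4.06e-13) and oligodendrocytes above pyramidal neurons (2.76, adjusted p = 6.00e-14). The order and the fit can part where 1 library is at 0, as for Ncan in OPCs, which came after SST interneurons by mean log2 and were higher than them by 0.95 in the fit (adjusted p = 0.00607).

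**Figure D2:**
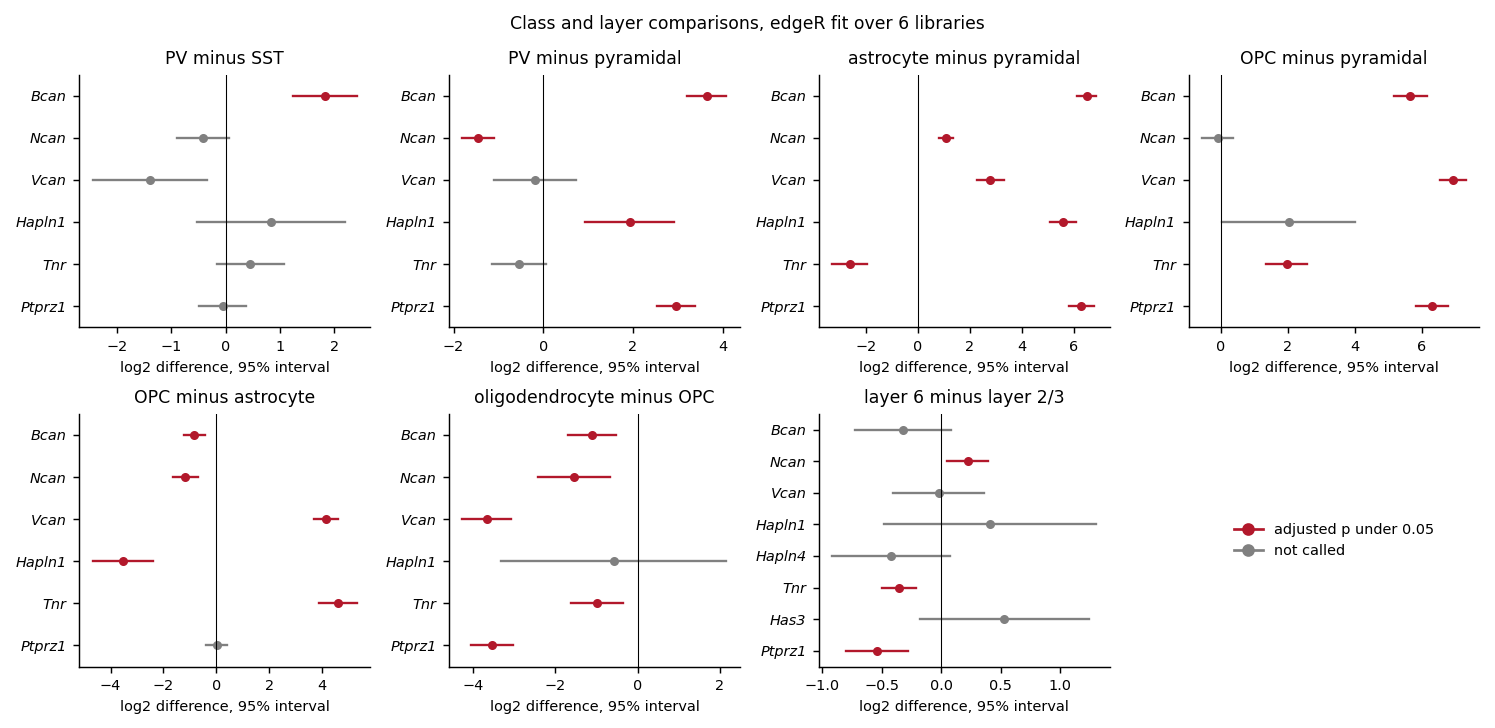
Differences of the members between classes and layers, as log2 differences with 95% intervals from the edgeR fit over the 6 libraries. Red marks an adjusted p under 0.05, and members that did not pass the filter on low counts are left out. Bcan is the member called in PV minus SST, and all 6 tested members are called in astrocyte minus pyramidal.

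The first class comparison asked which net genes set PV interneurons, the cells most often enclosed by nets, apart from SST interneurons. In this contrast 16.5% of the 10185 genes tested were called. Of the 6 members tested, Bcan was called, at 1.82 ± 0.30 (SE) on the log2 scale (adjusted p = 7.38e-07, higher in PV in 6 of 6 libraries). Vcan was lower in PV by a log2 difference of -1.40 without reaching the threshold (adjusted p = 0.0569). The other 4 were not called, and for Ptprz1 the 95% interval of the difference ran from -0.48 to 0.38. Without Run GH of dataset 1 Vcan was called at -1.98 (adjusted p = 0.0304), and without Sed GH of dataset 1 Hapln4 passed the filter and was called at 1.80 (adjusted p = 0.0176). Some clusters scored best on the PV or SST markers but had a marker of another class among their leading genes. They had been kept out of PV (67, 59, 116, 73, 152 and 55 nuclei) and SST (55, 56, 78, 31, 72 and 26 nuclei). When these were put back, a choice made after seeing the data, Bcan stood at 1.60 and Vcan was called at -1.28 (adjusted p = 0.0387).

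Against pyramidal neurons, PV interneurons were higher in 3 of the 6 tested members and lower in 1, where 41.5% of all genes were called. Bcan was higher by 3.65 ± 0.22 (SE, adjusted p = 1.42e-25), Ptprz1 by 2.95 ± 0.22 (adjusted p = 7.93e-21) and Hapln1 by 1.92 ± 0.50 (adjusted p = 0.000961). The Hapln1 call was lost with nuclei thinned to 1000 UMIs (1.44), and its PV values lay below the background droplets. Ncan was lower, with a log2 difference of -1.46 ± 0.17 (adjusted p = 2.22e-11). Tnr, at -0.54, did not pass (adjusted p = 0.144).

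In astrocytes all 6 tested members differed from pyramidal neurons, where 62.4% of all genes did. Bcan was higher by 6.48 ± 0.19 (SE), Ptprz1 by 6.28 ± 0.24, Hapln1 by 5.57 ± 0.25, Vcan by 2.78 ± 0.26 and Ncan by 1.07 ± 0.13, the largest adjusted p of the 6 being 1.12e-10. Tnr went the other way, at -2.62 ± 0.34. Astrocytes and pyramidal neurons did not overlap in any of the 6 genes across libraries. The share of all genes without such overlap was not counted, so this is not a trait of the members.

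OPCs exceeded pyramidal neurons in Vcan (6.93 ± 0.20, SE), Ptprz1 (6.31 ± 0.24), Bcan (5.65 ± 0.24) and Tnr (1.98 ± 0.31), 4 of 6 tested members where 37.2% of all genes were called. Ncan (-0.09, interval -0.55 to 0.36) and Hapln1 (2.03, adjusted p = 0.105) did not pass.

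The members differed in which glial class held them at the higher level. Between OPCs and astrocytes 5 of 6 tested members were called, where 28% of all genes were. Tnr (4.59 ± 0.36, SE) and Vcan (4.15 ± 0.23) were higher in OPCs, whereas Hapln1 (-3.54 ± 0.57), Ncan (-1.17 ± 0.23) and Bcan (-0.83 ± 0.20) were lower there. The Bcan call was lost with no library term (-0.80). Ptprz1 differed by 0.02, with an interval from -0.37 to 0.42. For Hapln1, 4 UMIs were found over all OPCs and 169 over all astrocytes.

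Oligodendrocytes were lower than OPCs in 5 of 6 tested members, where 18.8% of all genes were called. The log2 differences were -3.67 ± 0.29 (SE) for Vcan, -3.55 ± 0.26 for Ptprz1, -1.55 ± 0.44 for Ncan, -1.11 ± 0.29 for Bcan and -0.98 ± 0.32 for Tnr (adjusted p = 0.0172). Hapln1 did not pass (-0.58, interval -3.32 to 2.16). The Tnr call was lost when Run GH or Sed GH of dataset 1 or Sed SI of dataset 2 was left out, with log2 differences of -0.74, -0.75 and -0.93, and the Ncan call when Sed GH of dataset 1 was left out (-1.35). For Tnr the oligodendrocytes of dataset 1 had 263 and 400.3 CPM and those of dataset 2 had 2316, 2601, 2794 and 1441 CPM.

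The oligodendrocyte class of dataset 2 included a cluster led by Enpp6, a gene known from oligodendrocytes that have just begun to differentiate. Its 61 nuclei in dataset 2 met the naming rule for oligodendrocytes, whereas its 24 nuclei in dataset 1 did not and had no name. In it Tnr was at 11262 CPM in dataset 1 (exact Poisson interval 10612 to 11941) and 6341 CPM in dataset 2 (5922 to 6782), against 318 and 85.6 CPM in the other oligodendrocytes. Vcan was at 372 and 224 CPM there, against 14.6 and 12.2 CPM. Bcan was at 261 and 507 CPM against 32.9 and 40.8 CPM. The OPC marker Pdgfra had 1 UMI in the cluster in dataset 1 and 4 in dataset 2. Without the cluster, a choice made after seeing the data, Tnr was lower in oligodendrocytes than in OPCs by a log2 difference of -4.21 (adjusted p = 1.25e-20), Vcan by -5.83 and Bcan by -2.99. When all libraries were clustered together, Tnr was not called (-0.27, adjusted p = 0.405). The members had no common course along the lineage, since Ptprz1 was at 221 and 246 CPM in the cluster, well under every OPC library, while Tnr was above every OPC library.

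**Figure D3:**
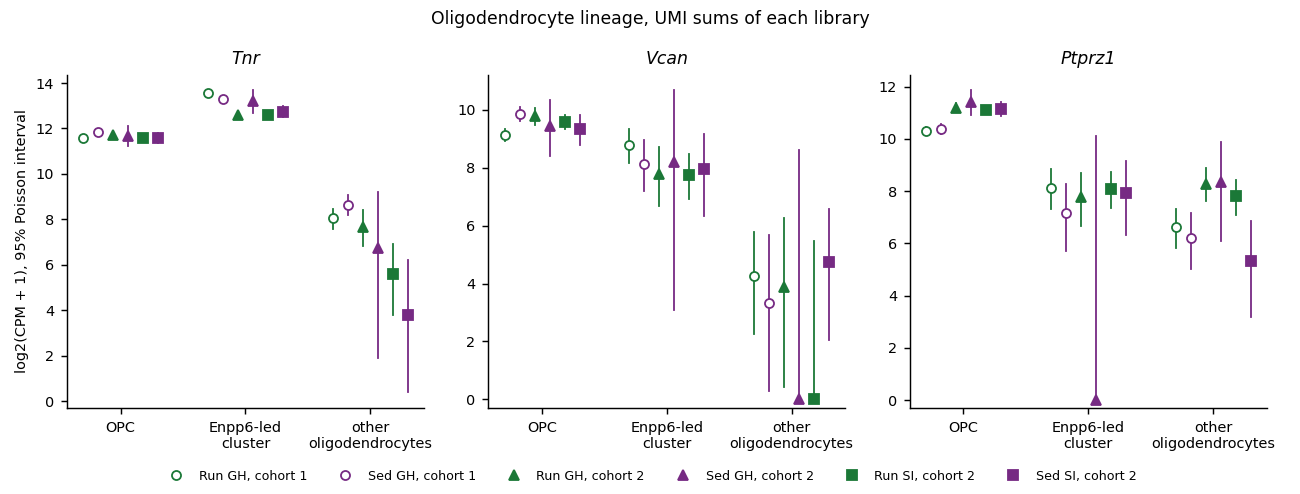
Tnr, Vcan and Ptprz1 in OPCs, the Enpp6-led cluster and the other oligodendrocytes, as log2(CPM + 1) per library with exact 95% Poisson intervals. In every library the Enpp6-led cluster stands highest for Tnr, while for Ptprz1 the OPCs do.

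Within pyramidal neurons, 3 of 8 tested members differed between layer 6 and layer 2/3, where 39.7% of all genes were called. Layer 6 here joins its corticothalamic and intratelencephalic clusters, a choice made after the clusters were seen. Ptprz1 was lower in layer 6 (-0.54 ± 0.13, SE, adjusted p = 0.000516), as was Tnr (-0.36 ± 0.07, adjusted p = 5.42e-05), and Ncan was higher (0.22 ± 0.09, adjusted p = 0.0342). The joined parts were unlike. Tnr averaged 509 CPM in the corticothalamic and 768 CPM in the intratelencephalic nuclei, against 771 CPM in layer 2/3. Ptprz1 averaged 12.5 and 21.9 CPM against 24.4 CPM, and Ncan 57.0 and 42.7 CPM against 44.4 CPM. For all 3 the mean of the intratelencephalic nuclei was thus the nearer to layer 2/3, and the parts were not tested apart. All 3 differences are small beside the largest differences of the same genes between classes, though not beside every one. The Ncan call was lost without any one of the 4 libraries of dataset 2 (0.17 to 0.25 over the 6 alternatives that lost it).

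Layer 5 near-projecting (NP) neurons differed from layer 2/3 in 3 members, but none of the 3 passed the test against layer 6b, which was measured in the 4 libraries of dataset 2. The share of all genes called between NP neurons and layer 2/3 was not counted, so the number of members called is a description. Hapln1 was at 13.5, 5.32, 14.3, 6.27, 4.46 and 4.41 CPM in NP neurons, against 0 to 1.20 CPM in layer 2/3 and 0 to 1.81 CPM in layer 6. The difference of layer 2/3 to NP neurons was -3.80 ± 0.42 (SE, adjusted p = 5.27e-11), and the ranges did not overlap. In 3 of the 6 libraries, Sed GH and both SI libraries of dataset 2, the NP value of Hapln1 lay below the background droplets. Against layer 6b the NP difference was 1.39 for Hapln1 (adjusted p = 0.498), 0.97 for Ptprz1 (adjusted p = 0.131) and -0.18 for Tnr (adjusted p = 0.470). Ptprz1 was at 58.2, 53.2, 43.0, 31.3, 51.7 and 38.2 CPM in NP neurons, above layer 2/3 and below the background droplets (88.8 to 179 CPM) of the same library in all 6 (layer 2/3 minus NP -0.85 ± 0.17, adjusted p = 2.80e-05). Tnr was at 440.4, 515, 347, 260.0, 303 and 313 CPM in NP neurons against 782, 894, 773, 750.4, 752 and 678 CPM in layer 2/3 (1.23 ± 0.08, adjusted p = 7.26e-19). A mid-layer cluster group was also low in Tnr, at 498, 519, 386, 389, 367 and 379 CPM (layer 2/3 minus mid-layer 0.85 ± 0.07, adjusted p = 4.75e-14), and in Ptprz1 (1.03 ± 0.15, adjusted p = 1.35e-07). Tnr was at 727 to 922 CPM in layer 5 extratelencephalic (ET) neurons, which exceeded layer 6 by 0.47 ± 0.07 (adjusted p = 5.23e-07). Ncan in ET neurons exceeded layer 2/3, with layer 2/3 minus ET at -0.35 ± 0.09 (adjusted p = 0.00146). Of the 40 Acan UMIs in pyramidal neurons, 20 were in layer 2/3 and 9 in layer 6, with 1 in the mid-layer group, 4 in ET neurons and 0 in layer 5 IT, NP and 6b neurons. The rest were in pyramidal nuclei outside these layer sums.

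**Figure D4:**
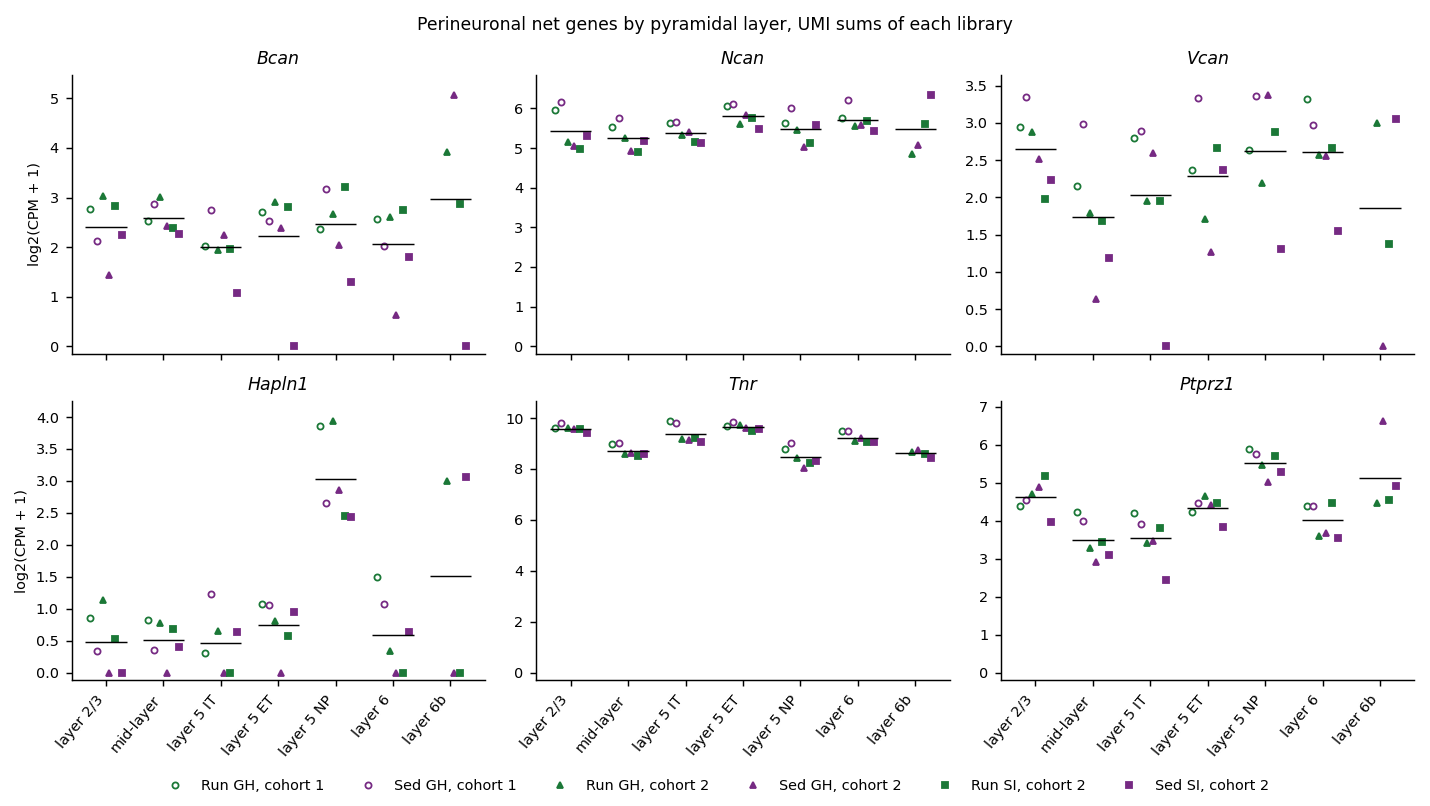
Members by layer of pyramidal neurons, as log2(CPM + 1) of the UMI sums per library, with horizontal lines as means over libraries. For Hapln1 layer 5 NP neurons stand above layer 2/3 and layer 6 in all 6 libraries, and for Tnr they stand below both.

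The maternal environment was the first question of the design, and no member was called for it in any of 5 classes (pyramidal, PV, SST, astrocyte and OPC). Over these classes 0.0506% of 47392 gene tests were called, 24 in all, with 3021 at an unadjusted p under 0.05. Of 28 tests on members, 1 fell under 0.05 before adjustment. This was Bcan in pyramidal neurons, with Run minus Sed at 0.79 ± 0.24 (SE, edgeR, adjusted p = 0.671). DESeq2 called 0 as well.

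Bcan in pyramidal neurons was at 5.11 and 4.42 CPM in Run and Sed GH of dataset 1, at 6.31 and 2.69 CPM in GH of dataset 2 and at 5.45 and 2.38 CPM in SI. The ratios of Run to Sed were 1.16, 2.35 and 2.29. The same ratios in the background droplets were 1.44, 1.77 and 1.54, and the level in these droplets lay above that in the pyramidal nuclei of each library. With the background profile subtracted, the difference was -0.27 (adjusted p = 0.923). When either library of dataset 1 was left out, so that the difference rested on dataset 2 alone, Bcan was called at 1.12 (adjusted p = 3.82e-05) and Ptprz1 at 0.36. The share of all genes called in those fits is not given here, so the calls are not a trait of the members. For Ptprz1 the ratios of Run to Sed were 1.00 in dataset 1 and, in dataset 2, 0.957 in GH and 1.89 in SI.

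In PV interneurons the maternal difference was 0.00 ± 0.23 (SE) for Bcan, with an interval of -0.46 to 0.46, and -0.09 ± 0.13 for Tnr (interval -0.36 to 0.17). In astrocytes it was -0.15 ± 0.16 for Bcan (interval -0.46 to 0.16) and -0.02 ± 0.13 for Ptprz1 (-0.27 to 0.24). In OPCs Tnr differed by 0.02 ± 0.18 and Vcan by -0.13 ± 0.21. Of the members, Bcan, Ncan, Ptprz1 and Tnr were tested in PV interneurons. Acan, at 31 UMIs, did not pass the filter there and was not tested, nor were Vcan, Hapln1, Hapln4 and Has3.

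Housing was tested against the same 28 values, with Run SI and Sed SI as the isolated libraries. No member was called, where 0.00211% of all gene tests were, 1 in all, with 944 at an unadjusted p under 0.05, none of them a member. DESeq2 called 0 members. For Bcan in PV interneurons the SI minus GH difference was 0.04 (interval -0.56 to 0.64), for Tnr in PV interneurons -0.12 (-0.45 to 0.22), and for Tnr in pyramidal neurons -0.10 (-0.32 to 0.13). For Acan in pyramidal neurons the interval was the widest of the 28, from -3.17 to 1.12.

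The difference by maternal environment was also tested against housing and against dataset. No member was called in either. For maternal environment by housing, 0% of 52535 gene tests were called, and 1141 had an unadjusted p under 0.05, among them that of Ptprz1 in pyramidal neurons (0.90 ± 0.31, SE, edgeR, adjusted p = 1). For maternal environment by dataset, 13.4% of gene tests had an unadjusted p under 0.05. The share was 24.5% in pyramidal neurons and 3.15% in OPCs. In this test 4.82% were called, most in pyramidal neurons. Bcan in pyramidal neurons (0.87 ± 0.35, SE, adjusted p = 0.0856) and Vcan in OPCs (1.13 ± 0.47, adjusted p = 1) had unadjusted p-values under 0.05 there. Each of these fits leaves 1 residual degree of freedom.

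**Figure D5:**
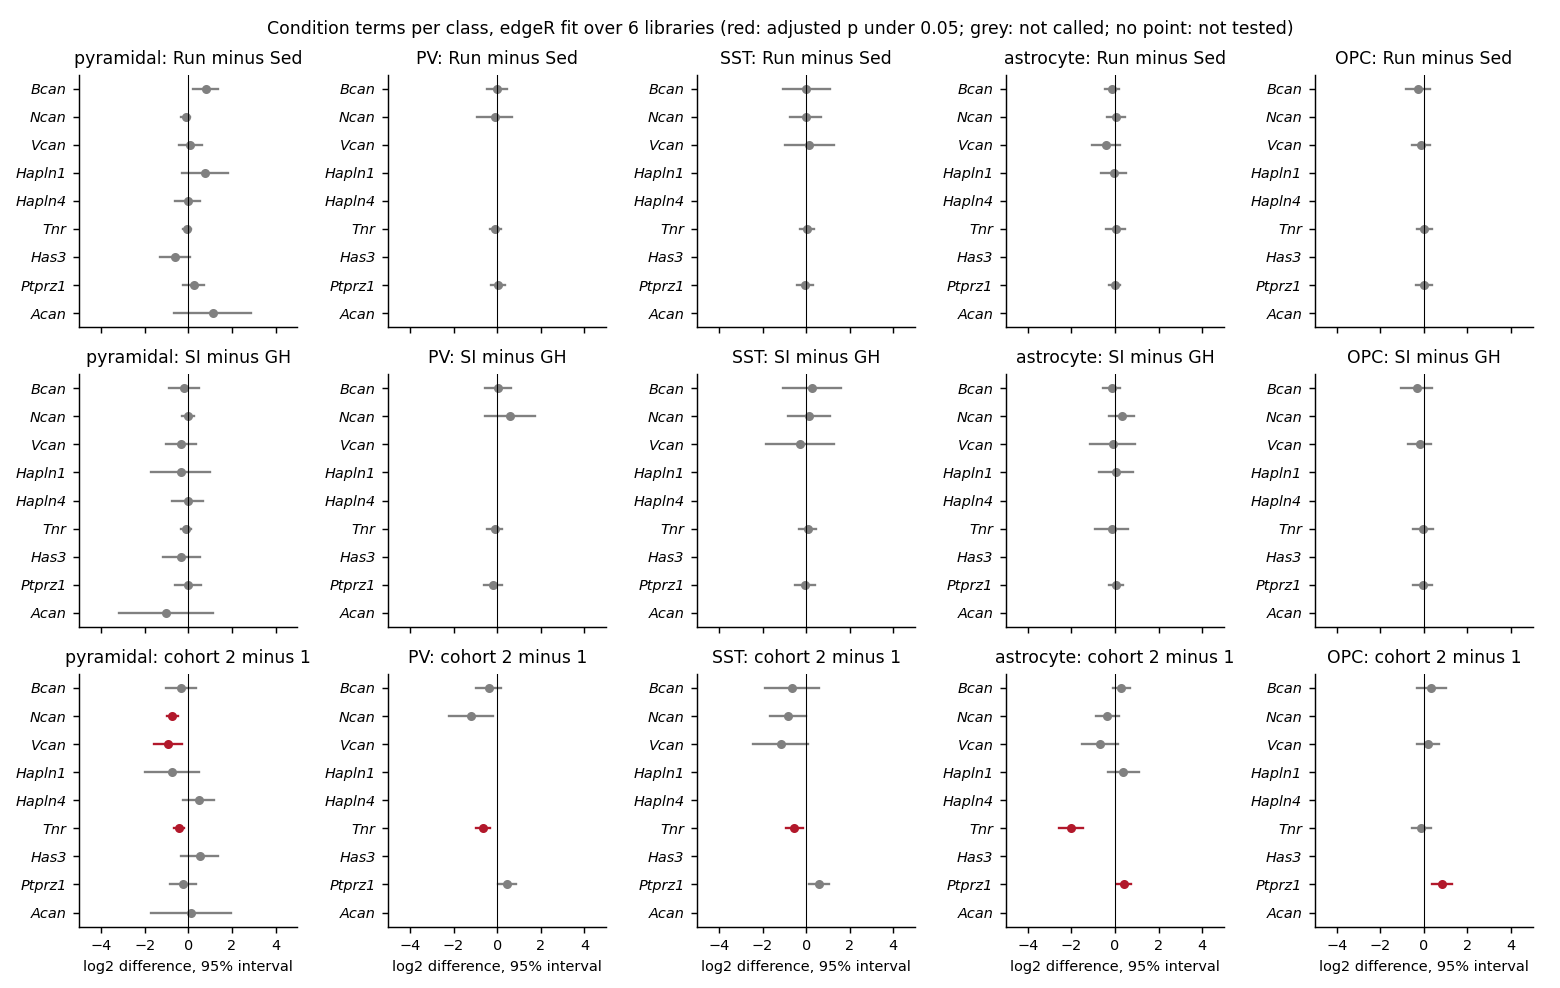
Terms for maternal environment, housing and dataset in 5 classes, as log2 differences with 95% intervals from the edgeR fit. Red marks an adjusted p under 0.05, grey a term that was not called, and a missing point a member that was not tested. Red points occur in the row for the dataset only, 4 of them for Tnr.

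The datasets differed in 8 of the 28 member tests, 6 lower and 2 higher in dataset 2, where 30.6% of genes were called in astrocytes, 11.9% in OPCs, 28.5% in PV interneurons, 38.3% in pyramidal neurons and 22.9% in SST interneurons. In the 5 classes together 30.3% of gene tests were called, so the share of member tests called was near that of all genes. Tnr was lower in dataset 2 in 4 of the 5 classes, by log2 differences of -2.02 ± 0.28 (SE) in astrocytes (adjusted p = 5.86e-09), -0.66 ± 0.16 in PV interneurons (adjusted p = 0.00106), -0.55 ± 0.18 in SST interneurons (adjusted p = 0.0381) and -0.45 ± 0.09 in pyramidal neurons (adjusted p = 0.0132). In OPCs it was at -0.11 (interval -0.55 to 0.33). The background droplets moved the same way, with Tnr at 542 and 660 CPM in dataset 1 and 188 to 269 CPM in dataset 2. With the background profile subtracted, the difference in astrocytes was -1.47 (adjusted p = 0.0240), and Tnr was still called in PV interneurons and pyramidal neurons but not in SST interneurons. The Tnr call was lost without any one of the 4 libraries of dataset 2 in pyramidal neurons (-0.43 to -0.47), without Run GH of dataset 2 in PV interneurons (-0.67), and without Run GH of dataset 1 (-0.41), Run GH of dataset 2 (-0.33) or Run SI (-0.57) in SST interneurons. With nuclei thinned to 1000 UMIs it was lost in PV (-0.47) and SST interneurons (-0.52), with group-housed libraries only in pyramidal neurons (-0.43) and SST interneurons (-0.51), and with DESeq2 in SST interneurons (-0.54). The count of members called was 2 without Run GH of dataset 2 and 4 without any one of the other 3 libraries of that dataset. The share of all genes called in those fits is not given here.

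Ptprz1 was higher in dataset 2 in OPCs (0.82 ± 0.23, SE, adjusted p = 0.00541) and in astrocytes (0.40 ± 0.16, adjusted p = 0.0396). It was also higher in the background droplets of dataset 2, at 143 to 179 CPM against 88.8 and 108 CPM. With the background profile subtracted, the astrocyte difference was 0.18 (adjusted p = 0.413) and was not called, nor was that in OPCs (0.61, adjusted p = 0.168). In pyramidal neurons Ncan (-0.73 ± 0.11, adjusted p = 0.00448) and Vcan (-0.93 ± 0.27, adjusted p = 0.0380) were lower in dataset 2. The Vcan call was lost with the background profile subtracted (-0.46), with group-housed libraries only (-0.89) and without any one of the 4 libraries of dataset 2 (-0.89 to -0.97), and its levels there lay below the background droplets. The datasets differ in behavioral testing, in how males were picked and in the share of UMIs held by nuclei (32.9% and 19.0% against 56.4% to 61.9%), and these cannot be told apart.

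A list of 88 related matrix genes was read in the same fits. It holds genes of chondroitin sulfate synthesis, of hyaluronan metabolism, other link proteins and tenascins, other proteoglycans, proteases with their inhibitors, and receptors and ligands of nets. Unlike the 9 members these genes could take part in clustering, and Cspg4, Mmp15 and Xylt1 are among the markers that named OPCs, so their class differences are a description. In PV minus SST, 7 of 58 tested were higher and 10 lower (29.3%, against 16.5% of all genes). Cemip, which encodes a hyaluronan-depolymerizing protein, was higher in PV interneurons by 4.03 ± 0.21 (SE) and Rtn4rl1, a receptor that binds chondroitin sulfate, by 1.72 ± 0.19. The sulfotransferase genes Chst15 (-2.27 ± 0.43) and Ust (-2.26 ± 0.45) were lower. In PV minus pyramidal, 6 were higher and 24 lower (51.7%, against 41.5% of all genes), led by Cemip (2.81) and the proteoglycan gene Spock3 (2.79), with Tnxb (-5.27) and Smoc2 (-3.58) at the other end.

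In astrocyte minus pyramidal, 18 of the 58 tested related genes were higher and 28 lower (79.3%, against 62.4% of all genes), with the membrane protease gene Mmp14 (5.79) and the tenascin gene Tnc (5.74) highest and Smoc2 (-3.00) and Spock1 (-2.88) lowest. In OPC minus pyramidal 18 were higher and 17 lower (60.3% against 37.2%), led by Cspg4 (7.69), which encodes NG2, and the sulfotransferase gene Chst3 (6.32), with Smoc2 (-2.98) and Spock1 (-2.26) lowest. In OPC minus astrocyte 16 were higher and 10 lower (44.8% against 28%), among them Cspg4 (6.38) and the aggrecanase gene Adamts4 (6.13) upward and Tnc (-2.63) and Mmp14 (-1.78) downward. In oligodendrocyte minus OPC 7 were higher and 11 lower (31% against 18.8%), with Adamts4 (4.56) and the link protein gene Hapln2 (3.94) upward and Cspg4 (-5.73) and Mmp15 (-4.72) downward. In layer 6 minus layer 2/3, of 59 tested, 14 were higher and 18 lower (54.2% against 39.7%), with Nrp1 (2.33), a semaphorin receptor, and Chsy3 (1.82), a chondroitin synthase, upward and Smoc2 (-2.29) and Rtn4rl1 (-1.57) downward. The medians of the list ran from -0.52 to 0.45 over the class comparisons, and those of all genes tested from -0.09 to 0.11.

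For the maternal environment and for housing, 0 related genes were called in any of the 5 classes, with 22 tested in OPCs and 77 in pyramidal neurons. In the test of maternal environment by dataset, 9 of 78 were called in pyramidal neurons (where 12.9% of all genes were), 1 with Run minus Sed larger in dataset 2 and 8 with it smaller, and 1 of 47 in PV interneurons (2.13% against 0.894%). Named after their values were seen, the larger one in pyramidal neurons was Nptx1 (0.71) and that in PV interneurons Chsy3 (1.06). Between datasets 2 were higher and 9 lower of 39 in astrocytes (28.2% called, against 30.6% of all genes). In OPCs 1 was higher and 5 lower of 22 (27.3% against 11.9%), and in PV interneurons 1 and 14 of 44 (34.1% against 28.5%). In pyramidal neurons 5 were higher and 22 lower of 77 (35.1% against 38.3%), and in SST interneurons 1 and 8 of 44 (20.5% against 22.9%). The shares called in astrocytes, pyramidal neurons and SST interneurons were thus near those of all genes. The medians of the list were below 0 in each class (-0.35, -0.34, -0.32, -0.20 and -0.24), where those of all genes tested lay between -0.04 and 0.01. Cemip (-3.53) and Spock3 (-2.68) fell farthest in astrocytes, where B3gat3 (1.20) and Cspg5 (1.16) were higher. In OPCs Cspg5 was higher by 0.92, and Spock3 (-6.84) and Chsy3 (-2.04) were lower. PV interneurons had Sema3a (0.88) higher and Nrp1 (-1.90) and Chst11 (-1.52) lower. Pyramidal neurons had Hyal1 (2.10) and Hyal3 (1.78) higher and Plxna1 (-1.32) and Adamts15 (-1.29) lower. SST interneurons had B3gat3 (1.09) higher and Plxna1 (-1.90) and Chsy3 (-1.41) lower. Of these calls between datasets, Sema3a was lost in 12 of 15 alternatives. B3gat3 was lost in 10 of 15 in SST interneurons and 9 of 15 in astrocytes, and Cspg5 in 9 of 15 in OPCs. Adamts15 was lost in 9 of 14 and Hyal3 in 7 of 14. Cspg5 in astrocytes and, in pyramidal neurons, Hyal1 and Plxna1 were lost in 0, and the others in 1 to 3.

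The genes whose levels ran most like each member were sought over 59 class by library sums, among 16321 genes, by Pearson's r of log2(CPM + 1). The points share libraries and depth, so these are descriptions. Ptprz1 was followed most closely by Mtss2 (r = 0.869), Cspg5 (0.785) and Luzp2 (0.784), and Ncan by Nim1k (0.797), Pitpnm2 and Usp11. For Tnr these were Opcml (0.790), Tmem132d and Nav1, and for Bcan Sash1 (0.743), Csrp1 and Kank1. Acan ran most like Rmi2 (0.745), Knl1 and Adgb, Vcan like Cask (0.728), Epn2 and Srgap1, and Hapln1 like Hbegf (0.718), Arhgef37 and Sox1. The lowest values were those of Hapln4, with Wnt10a (0.705), Ankrd9 and G6pc3, and Has3, with Shmt1 (0.569), E130304I02Rik and Gm13481. Between members the highest value was 0.608, for Bcan and Ptprz1.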

How the data were processed

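Nuclei of the PL were profiled with the 10x Chromium 3′ kit (V3). Per the labels and the methods, the authors aligned reads to mm10 with introns included and counted UMIs with Cell Ranger 6.0.0, whereas the matrix headers name another release. The deposited files are raw counts of UMIs per gene for all barcodes, and the 32285 genes have no normalization. In this re-analysis, nuclei with 500 to 4000 genes and at most 1% mitochondrial counts were kept, as in the study. A UMI minimum per library was added, the 99th percentile of the largest barcodes divided by 10 (620 to 3156 UMIs), because raw barcodes include background droplets. Scrublet marked 1.09% to 6.75% of nuclei of a library. These were kept, and removing them was an alternative.

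Each dataset was clustered on its own (scanpy 1.11.5, 3000 variable genes, 35 components, 20 neighbors, resolution 1.5) without the 9 members. Clusters were named from marker lists when at least 3 markers were detected and the top 10 genes did not belong to another class. The resolution, the sub-resolution of 1 for pyramidal neurons, the UMI minimum and the joining of layer 6 were settled after clusters had been seen. UMI counts were summed per library and class, and sums of under 10 nuclei were left out of fits.

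The tests were edgeR 4.0.16 quasi-likelihood F-tests (R 4.3.3) with TMM factors, filterByExpr and Benjamini-Hochberg adjustment over all genes tested, called at an adjusted p under 0.05. Condition fits had terms for dataset, maternal environment and housing over 6 libraries, with 2 residual degrees of freedom. Interaction fits had 1. Class fits had terms for library and class. Nuclei are not replicates, so the test over nuclei used by the study was not run. Each library is a pool of 3 males, so p-values measure the spread between these libraries only. The tests were checked on simulated counts. CPM intervals are exact Poisson and, like floors of 3 counts, cover counting error only. The background profile was the sum of droplets under the nuclei.

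The members and all gene lists were chosen with earlier results of these data known. Named were all 9 members, the 3 genes with the most similar pattern for each (Pearson's r over class by library sums, mean of at least 5 CPM), and per comparison and direction the related genes that passed the test by the largest margin of log2 change, at most 2. Alternatives were DESeq2 1.42.0, its size factors in edgeR, no filter on low counts, other limits on genes, thinning to 1000 UMIs, Scrublet removal, subtraction of the background profile, members allowed in clustering, all libraries clustered together, group-housed libraries only, no library or dataset term, and leaving out each library in turn. Within a dataset libraries deviated together (correlation of deviations from the group means 0.824 in pyramidal neurons, 0.671 in PV, 0.657 in SST, 0.643 in astrocytes and 0.176 in OPCs), and the dataset term serves as the replicate block.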

Additional observations from a re-analysis of the deposited data

Results flagged for a closer look

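Nuclei outside the comparisons also held member RNA above the highest level in the background droplets of their dataset, by the lower bound of an exact 95% Poisson interval. In the Enpp6-led cluster of dataset 1, which had no name, Bcan was at 261 CPM, Vcan at 372 CPM, Tnr at 11262 CPM and Ptprz1 at 221 CPM. In the clusters kept out of PV interneurons in dataset 1, Acan was at 9.97 CPM and Bcan at 69.8 CPM. In those kept out of SST interneurons in dataset 2, Tnr was at 326 CPM. Each group holds 1 library per dataset, so no group had enough libraries for a test of single libraries against the rest. No member was called in the tests of whether the maternal difference changed with housing or with dataset, which were run over all 6 libraries.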

How the results depend on the processing

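With the dataset term as replicate block left out, 0 members were called for the maternal environment and 0 for housing, and Bcan in pyramidal neurons stood at 0.78 (Run minus Sed). Members called for the maternal environment ranged from 0 to 2 over the fits that left out 1 library, with 2 without Run GH or Sed GH of dataset 1, when the estimate rested on dataset 2 alone. The share of all genes called in those fits is not given here. The count for the dataset was 8, and it was 5 with DESeq2, 4 with the background profile subtracted, 5 with group-housed libraries only and 2 to 7 with 1 library left out. In PV and SST interneurons alone it was 2, and 4 with the kept-out clusters of those classes put back, added after seeing the data. In PV minus SST the count was 1, and it was 2 with Scrublet removal, with background subtraction, with no upper limit on genes and with the kept-out clusters put back (added after seeing the data), 4 with no filter on low counts and 1 to 2 with 1 library left out. In PV minus pyramidal it was 4, and 7 with no filter. In the fits with no filter, Acan and the other members that had not passed it were tested as well. In oligodendrocyte minus OPC it was 5, and 3 to 5 with 1 library left out. In layer 6 minus layer 2/3 it was 3, and 0 with no library term. For these alternatives to the dataset, class and layer counts the share of all genes called is not given. The counts are thus a description. The maternal difference in pyramidal neurons changed sign for Bcan with the background profile subtracted (-0.27) and for Ptprz1 with the same setting (-0.26) and without Run SI or Sed SI (range with 1 library left out -0.055 to 0.43), as did Cspg5 between datasets in OPCs without Run GH of dataset 2 (range -0.12 to 1.03). Apart from the changes that a setting makes by its own construction, the cause was not tested. The 38 results on members followed here were those called in the main fit, with the uncalled maternal differences of Bcan and Ptprz1 in pyramidal neurons added. Over their 609 alternatives, 544 kept direction and side of the threshold, 57 lost and 4 gained the call, and 4 changed sign. Calls gained in other uncalled tests, such as Vcan and Hapln4 in PV minus SST, are outside this count. The 45 named results on related genes had 696 alternatives. Of these, 617 kept direction and side of the threshold, 78 lost the call and 1 changed sign. The Ptprz1 call between datasets was lost in 12 of 15 alternatives in astrocytes and 9 of 15 in OPCs. Depth limits Acan, Hapln4 and Has3, which rest on 31, 31 and 6 UMIs in PV interneurons.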

Other observations

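Within PV interneurons Ptprz1 differed between clusters in both datasets. It was at 28.0 CPM in the cluster led by Corin in dataset 1 and 48.0 CPM in that led by Gm32647 in dataset 2. In the clusters led by 6330411D24Rik it was at 134 and 187 CPM, and in those led by Il1rapl2 at 214 and 288 CPM. The clusters were formed on these nuclei, so these values are a description with no test.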
